A study of Homo sapiens with 6 samples.

Results

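Plasminogen activation genes and secreted antiproteases were followed as a set of 9 transcripts, picked by gene name from 59962 in the expression table: the activators PLAU and PLAT, the receptor PLAUR, and the inhibitors PI3, SLPI, WFDC2, SERPINE2, TFPI2 and SPINT1. All 9 were among the 16610 genes that entered the tests, and each had at least 2.18 TPM in every library. TPM measures transcript abundance per length, set to a common total per library. The genes were chosen with earlier results of these same comparisons known, so the adjusted p-values given for them describe these libraries and are no independent support.

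The libraries came from CFPAC-1, an established human line of pancreatic ductal adenocarcinoma, with 2 libraries in each of 3 groups. Cells carried sgRNA1 or sgRNA3, a pair of guide RNAs against SULF2, and the control was a guide against LACZ, a bacterial gene with no target in human cells. The labels call all 3 groups knockdowns of total RNA taken with TRIzol, and give neither the mode of the guides (cutting or repression) nor whether the lines are single clones. SULF2, an extracellular enzyme that removes 6-O-sulfate from heparan sulfate, stood at 45.2% of its LACZ level with sgRNA1 and at 40.1% with sgRNA3. The labels do not give separate cultures, so the p-values measure only a spread between libraries that may be technical.

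Urokinase (PLAU) and tissue-type plasminogen activator (PLAT) are serine proteases that turn the blood zymogen plasminogen into plasmin, which dissolves fibrin and cleaves matrix proteins. Urokinase does so mainly at the cell surface, held by its receptor PLAUR, and serpins such as SERPINE2 trap the activators in a covalent complex. Epithelia also make inhibitors with WAP domains (PI3, SLPI, WFDC2) or Kunitz domains (TFPI2 and the membrane-anchored SPINT1). These are aimed largely at neutrophil proteases, plasmin, and the proteases that activate hepatocyte growth factor. Pancreatic ductal tumours are known for high urokinase and urokinase receptor. The domain column of the deposited table listed trypsin and kringle domains for PLAU and PLAT, a serpin domain for SERPINE2, WAP domains for PI3, SLPI and WFDC2, and Kunitz domains for TFPI2 and SPINT1.

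Promoter sequence is shown for 3 members whose transcripts changed: SERPINE2, which rose with both guides, SPINT1, which fell with both, and PLAU, which fell with sgRNA1. Each is from RefSeq on GRCh38.p14, read 5′ to 3′ on the strand of the gene, and ends 30 bases after the start of a transcript. Where a gene had several windows, the one with the most motif matches is printed. Capitals mark GGGCGG or its reverse complement CCGCCC (the GC box that SP1-like factors bind) and TGANTCA (the AP-1 site, which reads the same on both strands).
SERPINE2 (chr2:224038611-224038890, minus strand): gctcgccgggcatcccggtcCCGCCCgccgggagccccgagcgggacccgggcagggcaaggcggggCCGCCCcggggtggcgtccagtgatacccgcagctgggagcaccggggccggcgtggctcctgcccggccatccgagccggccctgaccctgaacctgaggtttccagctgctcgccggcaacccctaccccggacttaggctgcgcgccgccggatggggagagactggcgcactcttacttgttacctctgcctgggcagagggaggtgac
SPINT1 (chr15:40843798-40844077, plus strand): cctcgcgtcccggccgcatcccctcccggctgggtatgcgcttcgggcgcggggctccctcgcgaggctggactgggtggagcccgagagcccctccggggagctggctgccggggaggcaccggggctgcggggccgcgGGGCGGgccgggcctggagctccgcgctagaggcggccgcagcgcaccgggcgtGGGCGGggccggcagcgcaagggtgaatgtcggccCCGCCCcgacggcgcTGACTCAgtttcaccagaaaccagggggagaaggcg
PLAU (chr10:73910882-73911161, plus strand): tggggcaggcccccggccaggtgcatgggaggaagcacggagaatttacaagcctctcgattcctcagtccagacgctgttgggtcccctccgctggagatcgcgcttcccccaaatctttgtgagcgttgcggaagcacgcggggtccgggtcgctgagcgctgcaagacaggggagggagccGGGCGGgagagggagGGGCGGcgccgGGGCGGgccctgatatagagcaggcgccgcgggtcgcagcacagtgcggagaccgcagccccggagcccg
The SPINT1 window held 3 GC boxes, at -110, -56 and -21 from the start, and an AP-1 site at -6. The PLAU window held 3 GC boxes at -66, -51 and -40, and the SERPINE2 window 2 at -230 and -183.

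Windows of 300 bases, 250 before the start and 50 after it, were searched for 6 of the 9 members, 9 windows in all. PLAT, on chromosome 8, was left out of this search, and no windows of PI3 and SLPI were used here. GC boxes stood in 6 of the 9 windows, against 45% of the 35116 windows of all genes, and AP-1 sites in 3 (SPINT1, TFPI2 and PLAUR), against 7.71%. TGACG, a partial cAMP response element, stood in 1 window, that of SERPINE2 past the start, against 24.6% of all windows. TATAAA was in 0 of the 9, against 11.5%. All motifs were searched on both strands and none overlapped another in these windows. Windows of 1 gene are not independent, and a match is a run of letters, not a bound site.

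Of the 9 genes, 5 passed the threshold with sgRNA1: PI3, SLPI and SERPINE2 rose, and PLAU and SPINT1 fell. With sgRNA3 5 passed as well: PI3, SLPI and SERPINE2 rose, and PLAT and SPINT1 fell. The threshold was a limma adjusted p of 0.05, adjusted over all 16610 genes in each comparison, and 6.0% of all genes passed with sgRNA1 (1.69% higher, 4.31% lower) and 9.08% with sgRNA3 (3.84% higher, 5.25% lower). Since the members were chosen on these comparisons, nothing is read from the difference in those shares. Libraries of the guide and of LACZ did not overlap for 7 of the 9 with sgRNA1 (55.0% of all genes) and for 9 of 9 with sgRNA3 (59.1% of all genes). The median log2 change of the 9 was 0.05 with sgRNA1, against -0.07 over all genes, and 0.26 with sgRNA3, against -0.045 over all genes. Both comparisons share the LACZ libraries. SULF2 itself passed with both guides (limma adjusted p = 0.0338 with sgRNA1 and 0.0215 with sgRNA3), at log2 changes of -1.09 and -1.23. Neither SULF2 call held without the low-value filter (limma adjusted p = 0.0768 and 0.0528), without the variance trend (0.0675 and 0.0511) or with a replicate block (0.0819 and 0.0583). The sgRNA1 call was also lost under quantile normalization (0.053) and in a fit limited to the groups compared (0.0825). With 1 library left out its log2 change ran from -1.33 to -0.86 with sgRNA1 and from -1.33 to -1.14 with sgRNA3. In bulk RNA, fewer cells with a transcript and less of it per cell cannot be told apart.

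**Figure D1:**
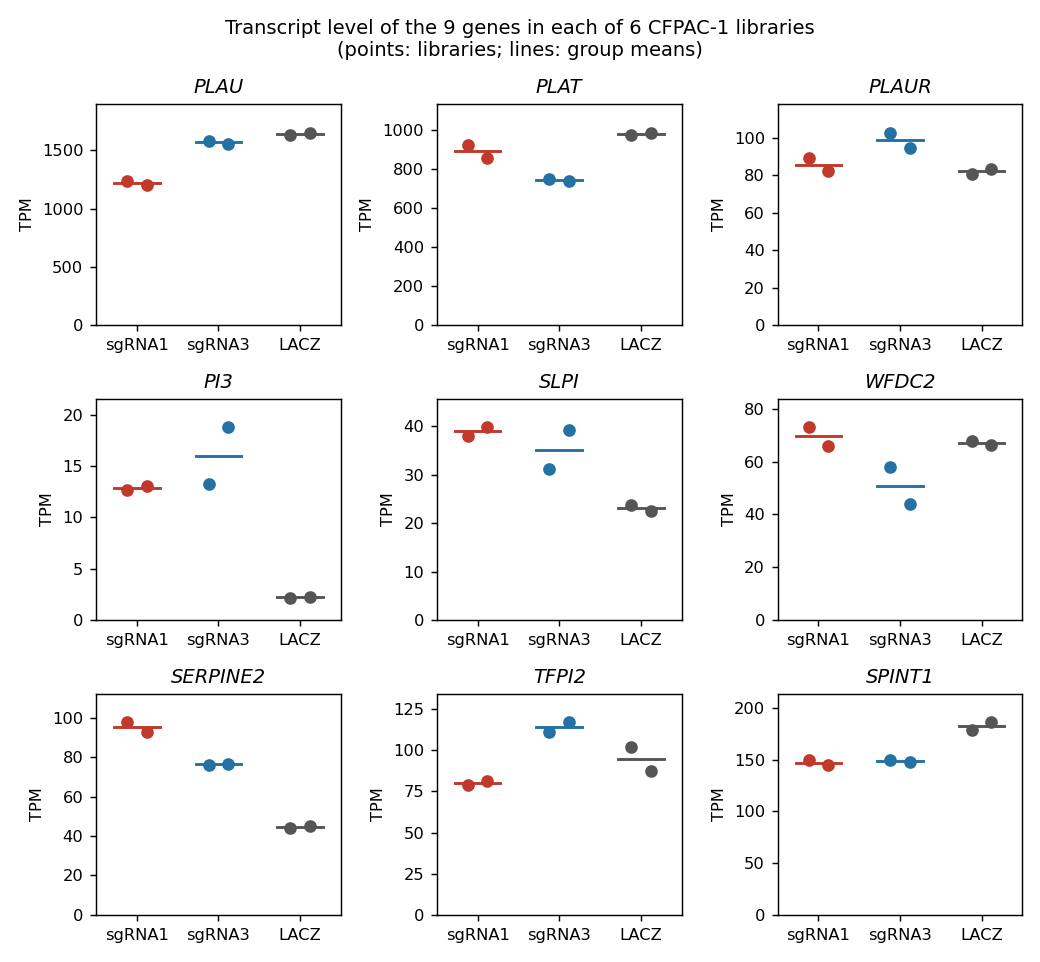
TPM of each of the 9 genes in every library (points), on axes of their own, with a line at the mean of the 2 libraries of SULF2 sgRNA1, SULF2 sgRNA3 and LACZ. PI3, SLPI and SERPINE2 sit above LACZ with both guides, SPINT1 sits below it with both, and PLAU and PLAT are each lowest with a different guide.

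PLAU and PLAT were by far the most abundant of the 9, and each fell past the threshold with a different guide. PLAU (ENSG00000122861, chromosome 10, 73909177 to 73917497, plus strand, GRCh38) encodes urokinase and ranked 77 among the tested genes by TPM in LACZ. It was at 1238.41 and 1199.52 TPM in the sgRNA1 libraries, 1583.82 and 1554.90 TPM in the sgRNA3 libraries, and 1629.70 and 1652.29 TPM in the LACZ libraries. Both sgRNA1 libraries were far below the other 4, and the sgRNA3 libraries lay just under LACZ without overlap. The sgRNA1 mean was 1219 ± 27.5 TPM (SD, n = 2), 74.3% of the LACZ mean of 1641 ± 16.0 TPM, a log2 change of -0.43 (SE 0.03, limma adjusted p = 0.00336). The sgRNA3 mean was 1569 ± 20.4 TPM, 95.6% of LACZ, a log2 change of -0.06 that did not pass (limma adjusted p = 0.226). The sgRNA1 call held with each of the 6 libraries left out in turn (adjusted p = 0.0219 to 0.0422) and was lost without the variance trend (0.063).

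PLAT (ENSG00000104368, chromosome 8, 42175233 to 42207724, minus strand), tissue-type plasminogen activator, ranked 139. Its TPM was 924.06 and 859.73 with sgRNA1, 750.59 and 738.96 with sgRNA3, and 976.70 and 989.08 in LACZ. The 3 groups did not overlap, and the sgRNA3 libraries were the lowest. With sgRNA3 the mean was 744.8 ± 8.22 TPM (SD, n = 2), 75.8% of the LACZ mean of 982.9 ± 8.75 TPM, and PLAT fell by 0.40 on the log2 scale (SE 0.04, limma adjusted p = 0.0101). With sgRNA1 the mean was 891.9 ± 45.5 TPM, 90.7% of LACZ, and the log2 change of -0.14 did not pass (limma adjusted p = 0.116). The sgRNA3 call was lost without either sgRNA3 library or either LACZ library (adjusted p = 0.0712 to 0.0762) and without the variance trend (0.0665).

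PLAU and PLAT together took 0.216% and 0.206% of all TPM in the sgRNA1 libraries, 0.233% and 0.229% in the sgRNA3 libraries, and 0.261% and 0.264% in the LACZ libraries. Their summed share was thus below LACZ in all 4 guide libraries. Both genes had means below LACZ with both guides, and the larger part of the fall was PLAU with sgRNA1 and PLAT with sgRNA3. All 9 genes together took between 0.258% and 0.288% of TPM in the guide libraries, against 0.311% and 0.313% in LACZ.

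PLAUR (ENSG00000011422, chromosome 19, 43646095 to 43670547, minus strand) encodes the GPI-anchored receptor that concentrates urokinase on the cell surface, and it passed with neither guide. It was at 89.17 and 82.15 TPM with sgRNA1, 102.88 and 94.82 TPM with sgRNA3, and 80.71 and 83.44 TPM in LACZ. The sgRNA1 libraries overlapped LACZ, and both sgRNA3 libraries were above it. Its log2 change came to 0.06 with sgRNA1 (limma adjusted p = 0.636) and to 0.26 with sgRNA3 (limma adjusted p = 0.074), each with an SE of 0.07. Under median-of-ratios scaling the sgRNA3 change passed (adjusted p = 0.0368).

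PI3 had the largest relative change of the 9 from the lowest level. PI3 (ENSG00000124102, chromosome 20, 45174876 to 45176544, plus strand) encodes elafin, an inhibitor of neutrophil elastase and proteinase 3 that is cross-linked into the matrix by transglutaminase. It was at 12.68 and 13.02 TPM with sgRNA1, 13.26 and 18.74 TPM with sgRNA3, and 2.18 and 2.27 TPM in LACZ, where it ranked 13809. All 4 guide libraries were clear of both LACZ libraries, and the sgRNA3 pair was the widest. On the linear scale the mean was 5.78 times LACZ with sgRNA1 and 7.19 times with sgRNA3. The log2(TPM + 1) changes, 2.10 and 2.38 with an SE of 0.18 each, understate those folds because the LACZ level is close to the added 1. The limma adjusted p was 0.00645 with sgRNA1, where leaving out either sgRNA1 or either LACZ library ended the call (0.0531 to 0.0678). It was 0.00429 with sgRNA3, where the call held with each of the 6 libraries left out (0.0189 to 0.0482).

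SLPI (ENSG00000124107, chromosome 20, 45252239 to 45254564, minus strand), secretory leukocyte protease inhibitor, blocks neutrophil elastase and cathepsin G on mucosal surfaces. It was at 38.07 and 39.73 TPM with sgRNA1, 31.10 and 39.16 TPM with sgRNA3, and 23.81 and 22.56 TPM in LACZ. The guide libraries were all above LACZ, the sgRNA3_1 library the least so. The mean was 38.9 ± 1.17 TPM (SD, n = 2) with sgRNA1 and 35.1 ± 5.70 TPM with sgRNA3, against 23.2 ± 0.884 TPM in LACZ. SLPI rose by 0.72 on the log2 scale with sgRNA1 (SE 0.12, limma adjusted p = 0.0343) and by 0.57 with sgRNA3 (limma adjusted p = 0.0483). The sgRNA1 call was lost without either sgRNA1 or either LACZ library (0.115 to 0.155), without the low-value filter (0.0739) and without the variance trend (0.0736). The sgRNA3 call did not survive the loss of any 1 of the 6 libraries (0.0608 to 0.185), with a pseudocount of 5 (0.0535), without the filter (0.102), without the trend (0.0892) and in a fit limited to the groups compared (0.0923).

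WFDC2 (ENSG00000101443, chromosome 20, 45469706 to 45481532, plus strand) encodes HE4, a secreted WAP protein used as a serum marker of ovarian cancer, and it passed with neither guide. It was at 72.97 and 66.12 TPM with sgRNA1, 57.94 and 43.88 TPM with sgRNA3, and 67.65 and 66.14 TPM in LACZ. The sgRNA1 libraries spanned the LACZ values, and both sgRNA3 libraries were below them and far from each other. With sgRNA1 the log2 change came to 0.05 and with sgRNA3 to -0.40, each with an SE of 0.14 (limma adjusted p = 0.851 for sgRNA1 and 0.135 for sgRNA3). With 1 library left out the sgRNA3 change ran from -0.60 to -0.20, and did not pass (adjusted p = 0.0753 to 0.338).

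PI3, SLPI and WFDC2 lie within 306.7 kb of chromosome 20, and none of the other WAP genes counted below lies in that stretch. SULF2 itself lies between 2174.8 and 2479.8 kb further along the same chromosome. The table held 19 genes across that stretch, 13 of them protein coding and 8 tested. PI3 and SLPI, the 2 nearest its start, were the tested genes called higher with either guide. Both, like WFDC2 at the far end, were chosen with these results known. With sgRNA3 SDC4, DBNDD2 and PIGT, which lie between SLPI and WFDC2, fell by 0.27, 0.36 and 0.33 on the log2 scale (limma adjusted p = 0.0328, 0.0273 and 0.0153). Over all genes tested, 5.25% were called lower with sgRNA3, and a pattern along the stretch was not tested. These neighbours were chosen by position. With sgRNA1 none of the 3 passed (limma adjusted p = 0.108, 0.194 and 0.195). SDC4, a heparan sulfate core protein, was at 106.23 and 102.98 TPM with sgRNA1, 98.84 and 95.77 TPM with sgRNA3, and 118.53 and 115.72 TPM in LACZ.

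SYS1 and the readthrough gene SYS1-DBNDD2 passed with neither guide (limma adjusted p = 0.752 and 0.424 with sgRNA1, 0.91 and 0.0787 with sgRNA3). The readthrough shares exons with SYS1 and DBNDD2, so the authors' estimates may split reads among the 3. Leaving out any 1 of the 6 libraries ended the SDC4 (0.0564 to 0.144) and DBNDD2 (0.057 to 0.124) calls. Leaving out an sgRNA3 or a LACZ library ended the PIGT call (0.0767 to 0.0951), and all 3 were lost without the variance trend (0.112, 0.08 and 0.0743). SDC4 (0.0562) and DBNDD2 (0.0567) also missed the threshold in a fit limited to the groups compared.

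**Figure D2:**
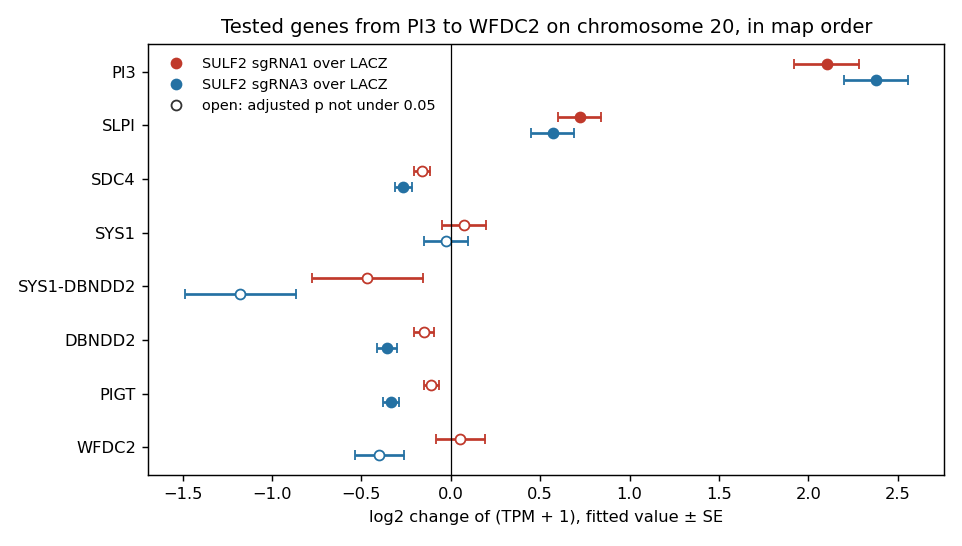
Log2 change of log2(TPM + 1) for the tested genes of the chromosome 20 stretch that holds PI3, SLPI and WFDC2, in genomic order, for SULF2 sgRNA1 and SULF2 sgRNA3 against LACZ, with bars of 1 SE and filled points for an adjusted p under 0.05. PI3 and SLPI are raised with both guides, at 2.10 and 2.38 for PI3 and 0.72 and 0.57 for SLPI, while the genes further along lie near or below 0.

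SERPINE2 rose with both guides, and its calls were the steadiest of the 9. SERPINE2 (ENSG00000135919, chromosome 2, 223975112 to 224039319, minus strand) encodes protease nexin-1, a serpin that inhibits thrombin, urokinase and plasmin, and that binds heparan sulfate. It was at 97.65 and 92.80 TPM with sgRNA1, 76.18 and 76.62 TPM with sgRNA3, and 43.84 and 45.04 TPM in LACZ. The 3 groups stood well apart, sgRNA1 highest. The mean was 95.2 ± 3.43 TPM (SD, n = 2) with sgRNA1, 2.14 times LACZ, and 76.4 ± 0.311 TPM with sgRNA3, 1.72 times LACZ, whose mean was 44.4 ± 0.849 TPM. SERPINE2 rose by 1.08 on the log2 scale for sgRNA1 (limma adjusted p = 0.00129) and by 0.77 for sgRNA3 (limma adjusted p = 0.00338), at an SE of 0.05. Both calls held under every alternative run, and with each of the 6 libraries left out the adjusted p was 0.0119 to 0.0287 with sgRNA1 and 0.015 to 0.043 with sgRNA3.

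SPINT1 fell with both guides by nearly the same amount. SPINT1 (ENSG00000166145, chromosome 15, 40844018 to 40858207, plus strand) encodes HAI-1, a membrane-anchored Kunitz inhibitor of hepatocyte growth factor activator and of the epithelial protease matriptase. It was at 149.41 and 144.50 TPM with sgRNA1, 150.05 and 147.67 TPM with sgRNA3, and 179.08 and 185.98 TPM in LACZ. All 4 guide libraries lay in a narrow band below LACZ. The mean was 147.0 ± 3.47 TPM (SD, n = 2) with sgRNA1, 80.5% of LACZ, and 148.9 ± 1.68 TPM with sgRNA3, 81.6% of LACZ, whose mean was 182.5 ± 4.88 TPM. SPINT1 fell by 0.31 on the log2 scale with sgRNA1 (SE 0.04, limma adjusted p = 0.0226) and by 0.29 with sgRNA3 (limma adjusted p = 0.0225). The sgRNA1 call did not survive the loss of any 1 of the 6 libraries (0.0675 to 0.118), without the trend (0.101) and in a fit limited to the groups compared (0.0675), and the sgRNA3 call without either sgRNA3 or either LACZ library (0.0866 to 0.117) and without the trend (0.0967).

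TFPI2 (ENSG00000105825, chromosome 7, 93885396 to 93890991, minus strand), tissue factor pathway inhibitor 2, is a matrix-bound Kunitz inhibitor of plasmin and trypsin that passed with neither guide. It was at 78.65 and 81.14 TPM with sgRNA1, 111.02 and 116.99 TPM with sgRNA3, and 101.74 and 87.25 TPM in LACZ. The sgRNA1 libraries were below both LACZ libraries and the sgRNA3 libraries above both, and the LACZ pair was itself the widest of the 3. Its log2 change came to -0.24 with sgRNA1 (limma adjusted p = 0.166) and to 0.27 with sgRNA3 (limma adjusted p = 0.107), each with an SE of 0.08.

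**Figure D3:**
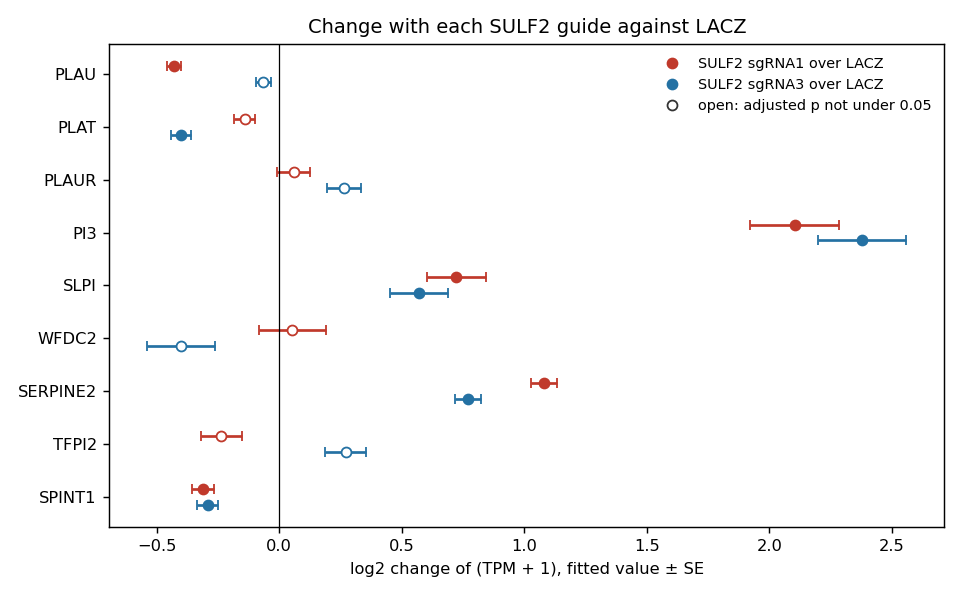
Log2 change of log2(TPM + 1) for the 9 genes with SULF2 sgRNA1 and SULF2 sgRNA3 against LACZ, with bars of 1 SE from limma and filled points for an adjusted p under 0.05. PI3, SERPINE2 and SLPI lie above 0 and SPINT1 below 0 with both guides, PLAU is at -0.43 with sgRNA1 and PLAT at -0.40 with sgRNA3.

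The guides were also compared with each other. Of the 9 genes PLAU passed in the fit of sgRNA3 against sgRNA1, where 0.578% of all genes passed: it was at 1569 ± 20.4 TPM with sgRNA3 and 1219 ± 27.5 TPM with sgRNA1 (SD, n = 2 each), a log2 difference of 0.36 (SE 0.03, limma adjusted p = 0.019). That call did not survive the loss of any 1 of the 6 libraries (0.0801 to 0.119), without the filter (0.0925), without the trend (0.203) and in a fit limited to the groups compared (0.0834). TFPI2 differed by 0.51 (limma adjusted p = 0.0957), PLAT by -0.26 (0.0953), SERPINE2 by -0.31 (0.101), WFDC2 by -0.45 (0.232) and PLAUR by 0.20 (0.263), and none of these passed. PLAT passed under median-of-ratios scaling (0.0416). PI3, SLPI and SPINT1 differed between the guides by 0.28, -0.15 and 0.02 (limma adjusted p = 0.525, 0.604 and 0.877). Libraries of the guides did not overlap for 7 of the 9 genes, against 47.0% of all genes.

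The other genes of the plasminogen system were counted next. Of 24 listed genes, 23 were found by symbol, 4 are among the 9, and 11 of the other 19 were tested. With sgRNA1 limma called 0 of the 11, against 6.0% of all genes (4 had an unadjusted p under 0.05), and the median log2 change was -0.02. With sgRNA3 it called 1, S100A10, against 9.08% of all genes, and the median was -0.003. S100A10, which with annexin A2 docks plasminogen and PLAT on the cell surface, was at 1091.22 and 1142.47 TPM with sgRNA1, 1194.24 and 1210.51 TPM with sgRNA3, and 1022.95 and 977.83 TPM in LACZ. It rose by 0.27 on the log2 scale with sgRNA3 (SE 0.04, limma adjusted p = 0.0209), a call lost without either sgRNA3 or either LACZ library (0.0746 to 0.115), without the filter (0.0638) and without the trend (0.118). Its sgRNA1 change of 0.16 did not pass (limma adjusted p = 0.0773).

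The plasminogen receptor PLGRKT had log2 changes of -0.42 and -0.49 with sgRNA1 and sgRNA3, and thrombomodulin (THBD), the endothelial thrombin receptor, -0.40 and 0.02. SERPINA5, the protein C inhibitor, had 0.25 and -0.03. None of these 3 passed (limma adjusted p = 0.117, 0.0543 and 0.179 with sgRNA1, and 0.0757, 0.9 and 0.868 with sgRNA3), and THBD passed for sgRNA1 with a filter of 5 TPM (0.0352). The transcript of plasminogen, the substrate, was scarce: PLG was at 0.61 and 0.79 TPM with sgRNA1, 1.3 and 0.49 TPM with sgRNA3, and 0.17 and 0.16 TPM in LACZ. Plasminogen protein, which can reach cells from blood, was not measured. PLG was below the filter and not tested.

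The counts for other inhibitors of the same families are read against the same shares of all genes, 6.0% with sgRNA1 and 9.08% with sgRNA3. Of 15 other WAP genes 1 was tested, WFDC3, which limma did not call with either guide (adjusted p = 0.723 and 0.453, and 0 had an unadjusted p under 0.05). The remaining 14 were at most 0.9 TPM in every library. Of 12 other Kunitz genes 5 were tested: with sgRNA1 limma called 0 (2 had an unadjusted p under 0.05), and with sgRNA3 it called 1. That was APP, the amyloid precursor, at 858.36 and 804.26 TPM with sgRNA1, 719.99 and 765.88 TPM with sgRNA3, and 870.29 and 909.89 TPM in LACZ, which fell by 0.26 on the log2 scale with sgRNA3 (SE 0.05, limma adjusted p = 0.0425). The APP call did not survive the loss of any 1 of the 6 libraries (0.0619 to 0.168), without the filter (0.106), under quantile normalization (0.0577), without the trend (0.144) and in a fit limited to the groups compared (0.0627). TFPI, the inhibitor of tissue factor with factor VIIa, had log2 changes of 0.05 and 0.12 with sgRNA1 and sgRNA3, SPINT2, the relative of SPINT1, -0.11 and -0.02, and APLP2 -0.12 and -0.15, and none passed, though APLP2 did for sgRNA3 under quantile normalization (adjusted p = 0.0441).

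Among 29 other serpins 14 were tested. Limma called 0 with sgRNA1 (6 had an unadjusted p under 0.05) and 2 with sgRNA3, and the median log2 change was 0.01 with sgRNA1 and -0.06 with sgRNA3. SERPINB5 (maspin) was at 46.04 and 44.37 TPM with sgRNA1, 65.53 and 58.74 TPM with sgRNA3, and 39.33 and 32.37 TPM in LACZ, and rose by 0.78 on the log2 scale with sgRNA3 (SE 0.11, limma adjusted p = 0.0206). SERPINA3, antichymotrypsin, was at 5.29 and 5.37 TPM with sgRNA1, 3.69 and 4.37 TPM with sgRNA3, and 7.96 and 8.69 TPM in LACZ, and fell by 0.89 with sgRNA3 (SE 0.14, limma adjusted p = 0.0265). Both calls were lost without any 1 of the 6 libraries (0.0516 to 0.111 for SERPINB5 and 0.0575 to 0.125 for SERPINA3) and in a fit limited to the groups compared (0.0531 and 0.0583), SERPINB5 also without the trend (0.0552) and SERPINA3 without the filter (0.073). SERPINB1 and SERPINA1 passed with neither guide.

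Of 18 listed proteases that such inhibitors hold, with their receptors and cofactors, 8 were tested. F3, tissue factor, which starts coagulation with factor VIIa, followed the same order as PLAU. It was at 644.84 and 644.41 TPM with sgRNA1, 947.01 and 950.91 TPM with sgRNA3, and 987.64 and 925.67 TPM in LACZ. The sgRNA1 libraries were far below the rest, and the sgRNA3 libraries lay within the LACZ range. F3 fell by 0.57 on the log2 scale with sgRNA1 (SE 0.04, limma adjusted p = 0.00335, and 0.015 to 0.038 with each of the 6 libraries left out), while with sgRNA3 its change was -0.01 (limma adjusted p = 0.886). Without the variance trend the sgRNA1 call was lost (0.0503).

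Between sgRNA3 and sgRNA1 F3 differed by 0.56 (limma adjusted p = 0.0174), a call lost without any 1 of the 6 libraries (0.0714 to 0.107), without the filter (0.0659), without the trend (0.167) and in a fit limited to the groups compared (0.0718). With sgRNA1 limma called 1 of the 8, F3, against 6.0% of all genes, and with sgRNA3 0 of the 8, against 9.08% (1 had an unadjusted p under 0.05). Prostasin (PRSS8), an epithelial membrane protease, had log2 changes of -0.42 and -0.32 with sgRNA1 and sgRNA3 that did not pass (limma adjusted p = 0.0913 and 0.136). Matriptase (ST14) had -0.01 and 0.08, and TMPRSS2 -0.12 and -0.18, and these did not pass either. The neutrophil targets of PI3 and SLPI, ELANE, PRTN3 and CTSG, and the growth factor HGF were listed at 0 in all 6 libraries.

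Among events downstream of plasmin, 20 of 21 listed genes were found and 15 tested, with 2 called for each guide, against 6.0% of all genes with sgRNA1 and 9.08% with sgRNA3. TIMP1, the secreted inhibitor of matrix metalloproteinases, was at 124.67 and 133.08 TPM with sgRNA1, 126.15 and 132.09 TPM with sgRNA3, and 102.90 and 103.67 TPM in LACZ. It rose by 0.32 on the log2 scale with each guide (SE 0.05, limma adjusted p = 0.0347 with sgRNA1 and 0.0286 with sgRNA3). The sgRNA1 call did not survive the loss of any 1 of the 6 libraries (0.0717 to 0.161), and the sgRNA3 call without either sgRNA3 or either LACZ library (0.108 to 0.135), and both were lost without the filter (0.0601 and 0.0512) and without the trend (0.111 and 0.0951). In a fit limited to the groups compared the sgRNA1 call was lost too (0.0805). F2RL1, the protease-activated receptor PAR2, was at 117.55 and 112.17 TPM with sgRNA1, 129.23 and 132.35 TPM with sgRNA3, and 140.64 and 140.37 TPM in LACZ. It fell by 0.29 with sgRNA1 (SE 0.04, limma adjusted p = 0.0297), a call lost without any 1 of the 6 libraries (0.0704 to 0.143), without the trend (0.113) and in a fit limited to the groups compared (0.0782). Its sgRNA3 change of -0.10 did not pass (limma adjusted p = 0.213).

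MMP7, matrilysin, an epithelial metalloproteinase, was at 1819.51 and 1788.18 TPM with sgRNA1, 1432.73 and 1433.76 TPM with sgRNA3, and 1662.20 and 1657.95 TPM in LACZ. The sgRNA3 libraries were below LACZ and the sgRNA1 libraries above it. MMP7 fell by 0.21 on the log2 scale with sgRNA3 (SE 0.02, limma adjusted p = 0.0128), and its change of 0.12 with sgRNA1 did not pass (0.0558). That sgRNA1 change passed under median-of-ratios scaling, at 0.20 (adjusted p = 0.0224), and with a filter of 5 TPM (0.0359). Leaving out either sgRNA3 or either LACZ library ended the sgRNA3 call (0.0757 to 0.0913), as did no filter (0.0625) and no trend (0.144). Between sgRNA3 and sgRNA1 it differed by -0.33 (limma adjusted p = 0.0174), and that call did not survive the loss of any 1 of the 6 libraries (0.077 to 0.119), without the filter (0.0925), without the trend (0.212) and in a fit limited to the groups compared (0.0816). F2R, the thrombin receptor PAR1, had log2 changes of -0.14 and -0.30 with sgRNA1 and sgRNA3, and neither passed (limma adjusted p = 0.268 and 0.0575), though the sgRNA3 change did with a filter of 5 TPM (0.0441).

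**Figure D4:**
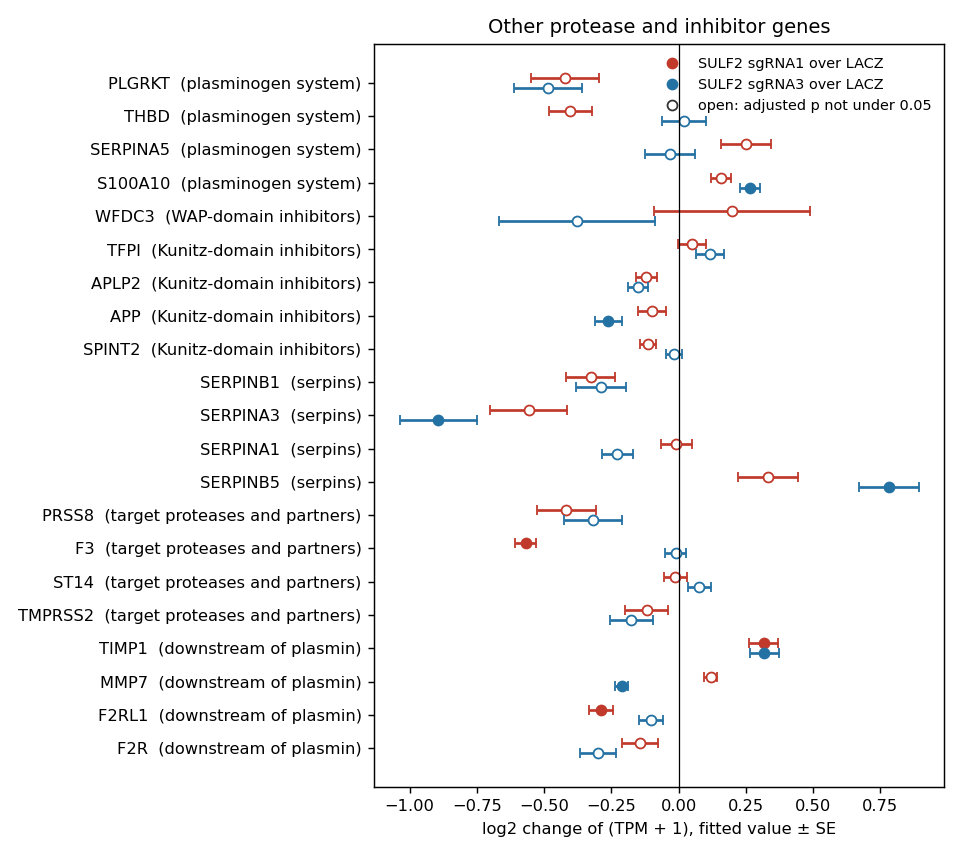
Log2 change of log2(TPM + 1) for the named genes of the plasminogen system, the other inhibitor families, their target proteases and events downstream of plasmin, for SULF2 sgRNA1 and SULF2 sgRNA3 against LACZ, with bars of 1 SE, filled where the limma adjusted p is under 0.05. F3 and F2RL1 are filled below 0 for sgRNA1, APP, SERPINA3 and MMP7 below 0 for sgRNA3, S100A10 and SERPINB5 above 0 for sgRNA3, and TIMP1 above 0 for both.

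The genes whose profile over the 6 libraries was most like that of PI3 were C13orf42, HSPA1A and TXNDC5, at a root mean square difference of 0.565, 0.647 and 0.652 on the log2 scale from its profile relative to LACZ. C13orf42 was at 2.66 and 0 TPM in LACZ and passed with neither guide (limma adjusted p = 0.109 for sgRNA1 and 0.0833 for sgRNA3). TXNDC5 was at 10.99 and 23.9 TPM in LACZ. It passed with sgRNA3 (limma adjusted p = 0.0438) but not with sgRNA1 (0.103). The sgRNA3 call of TXNDC5 was lost without the variance trend (0.0822), without the low-value filter (0.107) and in a fit limited to the groups compared (0.0781). HSPA1A, a heat shock chaperone with a near-identical copy in HSPA1B, was at 103.39 and 99.47 TPM with sgRNA1, 86.01 and 97.65 TPM with sgRNA3, and 32.25 and 35.43 TPM in LACZ. It passed with both guides (limma adjusted p = 0.00173 with sgRNA1 and 0.00254 with sgRNA3).  For SPINT1, the member with the most negative mean change over both guides (-0.30), the nearest were ZFAND3, GMEB2 and KIAA1522, at 0.016, 0.02 and 0.025. ZFAND3 was at 56.52 and 53.61 TPM with sgRNA1, 57.18 and 56.56 TPM with sgRNA3, and 67.57 and 69.86 TPM in LACZ. It passed with sgRNA1 and sgRNA3 (limma adjusted p = 0.0403 and 0.0474), as did KIAA1522 (0.0432 and 0.0487). Those calls were lost without the variance trend (0.103 and 0.114, and 0.104 and 0.113). GMEB2 passed with neither guide (0.114 and 0.115). These genes were picked for their likeness to a member, so their calls are no separate support.

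Cell identity was checked on marker lists. Of 12 pancreatic duct and epithelial markers 11 were at 1 TPM or more in all 6 libraries, with a summed level of 13839 to 14017 TPM with sgRNA1, 12814 to 12854 TPM with sgRNA3, and 14850 to 14874 TPM in LACZ, and CFTR was at 0.07 to 0.38 TPM. Acinar markers summed to 0.61 to 1.6 TPM, with CELA2A and AMY2A at 0 throughout, and endothelial markers to 4.98 to 6.53 TPM, with EMCN at 0. Leukocyte and neutrophil markers summed to 102.0 to 106.8 TPM with sgRNA1, 112.2 to 114.3 TPM with sgRNA3, and 96.2 to 101.8 TPM in LACZ, mostly CD68, with ELANE, MPO, S100A12 and FCGR3B at 0 and PTPRC at no more than 0.1 TPM. Fibroblast markers, none at 0 throughout, summed to 63.0 to 65.5 TPM with sgRNA1, 39.6 to 60.4 TPM with sgRNA3, and 80.6 to 82.8 TPM in LACZ, most of it COL1A1. COL3A1 stayed at or under 0.02 TPM and DCN at or under 0.11 TPM. In the sgRNA3 libraries COL1A1 was at 39.01 and 35.08 TPM, and ACTA2 was at 18.61 and 2.06 TPM. Limma called COL1A1 lower with both guides against LACZ, and lower with sgRNA3 than with sgRNA1. The part of these sums in the 9 genes' changes was not tested.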

How the data were processed

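Total RNA of CFPAC-1 cells was sequenced in 6 libraries. The authors deposited gene TPM values with 2 decimals, made on GRCh38. HISAT2 2.1.0, RSEM 1.3.1 and DESeq2 1.24.0 appear in the submitters' processing notes without a role. The annotation release, strandedness and treatment of shared reads are not given in the sources held here. TPM keeps no sequencing depth, so precision rests on the replicate libraries, whose values of a gene differed by a median of 0.13 to 0.15 on the log2 scale. Between 15563 and 15923 genes per library reached 1 TPM. Column names carry H1 and H3 where titles carry S1 and S3, and the guide number joined them. Coordinates are from GENCODE 29, which held all 9 genes.

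Genes with at least 2 libraries at 1 TPM were kept and log2(TPM + 1) was tested in 1 limma 3.58.1 fit (R 4.3.3, data.table at 1.17.8) of 3 groups with an intensity trend (3 residual and 2.34 prior degrees of freedom). P-values are two-sided, with Benjamini-Hochberg adjustment over 16610 genes. DESeq2 was not used, since TPM values are not counts. The fit was tested on simulated data. Members and gene lists were chosen with earlier results of these data known. From each list up to 4 non-members with the smallest p against LACZ and at least 5 TPM were named. Likeness is the root mean square difference of log2(TPM + 1) minus its LACZ mean. Alternatives were other pseudocounts, filters and scalings, no trend, only the groups compared, a replicate block, and each library left out, which takes the spread of a lone library from the other groups. Sequences are from RefSeq.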

Additional observations from a re-analysis of the deposited data

Results flagged for a closer look

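PLAU differed between the guides: its mean was 1569 ± 20.4 TPM with sgRNA3 and 1219 ± 27.5 TPM with sgRNA1 (SD, n = 2 each), a log2 difference of 0.36 that passed the limma test (adjusted p = 0.019), with both sgRNA3 libraries above both sgRNA1 libraries. Leaving out any 1 of the 6 libraries ended that call (adjusted p = 0.0801 to 0.119).

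TFPI2 passed with neither guide against LACZ (limma adjusted p = 0.166 with sgRNA1 and 0.107 with sgRNA3), but the libraries of the 2 guides lay on opposite sides of LACZ: both sgRNA3 libraries (111.02 and 116.99 TPM) were above both LACZ libraries (101.74 and 87.25 TPM), and both sgRNA1 libraries (78.65 and 81.14 TPM) were below them. That position in itself was not tested. The log2 difference of sgRNA3 from sgRNA1 was 0.51 and did not pass in the limma fit (adjusted p = 0.0957).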

How the results depend on the processing

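PI3 with sgRNA3 and SERPINE2 with both guides passed under each alternative run. Of 405 values of the 9 genes under an alternative, 345 kept their direction and their side of the threshold, 53 kept their direction and lost the call, 2 gained one and 5 changed sign. The number of the 9 genes past the threshold, 5 with sgRNA1 and 5 with sgRNA3, was 2 and 2 without the variance trend (PI3 and SERPINE2), and 2 to 4 and 2 to 4 with 1 library left out (2 without any library of the guide or of LACZ, 4 without one of the other guide). Between sgRNA3 and sgRNA1 it was 1 (PLAU), against 0 without the low-value filter, without the trend and in a fit limited to the groups compared, 2 under median-of-ratios scaling, and 0 with any 1 library left out. Fewer libraries entered the fits of only the groups compared and those with a library left out, more genes the fit without the filter, and otherwise the cause was not tested.

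With a replicate block 3, 3 and 0 of the 9 passed in the 3 comparisons (sgRNA1, sgRNA3, sgRNA3 against sgRNA1). The calls lost were those of SLPI (limma adjusted p = 0.0725 with sgRNA1 and 0.0824 with sgRNA3), SPINT1 (0.0672 and 0.0606) and PLAU between the guides (0.0883). Same-numbered libraries did not deviate together over all 16610 genes (correlations of -0.031, -0.018 and 0.006). A shift shared by a smaller set of genes was not tested.

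Signs changed for small values that did not pass. With median-of-ratios scaling SERPINA1 (0.0754) and ST14 (0.0710) turned positive with sgRNA1, and SERPINA5 (0.0222), SPINT2 (0.0396), F3 (0.0446) and SYS1 (0.0259) with sgRNA3. With quantile normalization SERPINA1 (0.0200) and ST14 (0.0119) did so with sgRNA1, and SERPINA5 (0.0306) and SYS1 (0.0182) with sgRNA3. SPINT1 between sgRNA3 and sgRNA1 was -0.0097 and -0.0270 under these scalings. With 1 library left out, log2 changes with sgRNA1 ran from -0.0165 to 0.1237 for WFDC2, -0.1127 to 0.5090 for WFDC3, -0.0712 to 0.0551 for SERPINA1, -0.0260 to 0.0012 for ST14 and -0.0001 to 0.1530 for SYS1. Those with sgRNA3 ran from -0.0244 to 0.0646 for THBD, -0.1065 to 0.0460 for SERPINA5, -0.0576 to 0.0358 for F3 and -0.1606 to 0.1059 for SYS1. Between sgRNA3 and sgRNA1 they ran from -0.3135 to 0.0097 for SLPI, -0.0053 to 0.0426 for SPINT1 and -0.3753 to 0.0933 for SULF2.

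Over all genes, sgRNA1 had 997 calls, against 542 without the filter, 295 without the trend, 311 in a fit limited to the groups compared, 377 with the block and 150 to 346 with 1 library left out. The same counts were 1509, 785, 557, 833, 561 and 192 to 852 for sgRNA3, and 96, 0, 12, 2, 0 and 0 to 27 for sgRNA3 against sgRNA1. Scaling moved the split of higher and lower calls: 281 and 716 with sgRNA1 became 606 and 576 (median-of-ratios) or 442 and 560 (quantile). With sgRNA3, 637 and 872 became 1042 and 788, or 776 and 808, and between the guides 65 and 31 became 58 and 45, or 55 and 44.

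Depth is unknown, so how far it limits PI3, at about 2 TPM in LACZ, cannot be given.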
